A study of Mus musculus with 8 samples.

Results

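Cholesterol is built from acetyl-CoA by a chain of enzymes, and 8 genes of that pathway were followed here in mouse tongue epithelial cells: the enzymes Hmgcs1, Idi1, Sqle, Cyp51 and Sc5d, the transcription factors Srebf2 and Srebf1, and the sterol sensor Insig1. They were taken by symbol from the 32285 genes of each count matrix. Epithelial cells were those in which the keratins Krt5, Krt14, Krt15, Krt13 and Krt6a made up at least 0.5% of the molecules (unique molecular identifiers, UMIs) and in which the leukocyte gene Ptprc was at 0. Within the limits on cell quality the rule kept 12957 of 25199 cells, out of 42550 barcodes, and all 8 genes were measured in every library.

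Single cells from tongue epithelium were profiled by 3' droplet sequencing in 8 libraries, 2 per genotype, to ask how normal oral epithelial progenitors change when a viral oncogene pair, an active YAP, or both are switched on. Every mouse carried a tamoxifen-inducible Cre driven by the Krt14 promoter (Krt14-CreERT) and a Cre-dependent reverse tetracycline transactivator (LSL-rtTA), and the study's methods add a tetON_H2B-GFP reporter in all groups. Mice of group N had no oncogene, and group E also carried tetON_E6-E7 (the E6 and E7 oncogenes of human papillomavirus). Group Y carried tetON_YAP1S127A (a constitutively active YAP1), and group EY carried both tetON_E6-E7 and tetON_YAP1S127A. Littermates aged 8 to 16 weeks received tamoxifen injected into the tongue and doxycycline in the diet, controls included, and cells were taken 15 days after induction. The Cre reaches the Krt14-expressing cells and their progeny, so leukocytes were not targeted. Libraries are named by group and number (N1, N2 and so on). The study's methods give 2 mice per genotype and call its replicates biological. The numbers pair nothing, and N2, whose title lists 2 animals, may be a pool.

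Sterol synthesis is governed by feedback. When membrane cholesterol is low, the precursors encoded by Srebf2 and Srebf1 are carried to the Golgi and cut, and the released factors enter the nucleus and switch on the enzymes and Insig1; when sterols are plentiful, the INSIG proteins hold the precursors in the endoplasmic reticulum. Dividing cells need cholesterol for new membrane, and the upper layers of a stratified epithelium use it for the lipids of the barrier.

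The cells carried the markers of tongue keratinocytes in every library. The summed level of 7 epithelial markers ran from 19906 to 23988 CPM (UMIs scaled to a common library total). All of these but Epcam and Cdh1 are keratins of the selection rule, so a high sum was built in. Epcam and Cdh1, which the rule did not use, were above 60 CPM throughout. The summed endothelial, muscle and Schwann cell lists reached at most 0.572, 0.407 and 1.22 CPM. Red cell markers were higher and uneven, from 1.54 CPM in EY2 to 523 CPM in Y2 and 601 CPM in N2, as were gland or duct markers, from 21.4 CPM in Y2 to 407 CPM in EY1 and 599 CPM in N2; their part in the results was not tested. Among fibroblast markers Col1a1, Col1a2 and Lum reached at most 2.04 CPM, while Dcn went from 1223 CPM in N2 down to 27.0 CPM in EY2. The Yap1 row was checked first. It counts reads placed on the mouse gene of mm10 and is no direct count of the transgene. Yap1 was higher with the YAP transgene by 2.73 on the log2 scale (edgeR adjusted p = 0.00301). Expression of E6-E7 was not checked. Depth was uneven, from 170 epithelial cells and 2454816 UMIs in EY1 to 4055 cells and 55154619 UMIs in E1. EY1 stood apart, since 68 of its 170 epithelial cells held under 0.5% mitochondrial UMIs, against 0.203 to 7.71% of the epithelial cells elsewhere, and the upper limits on genes and UMIs removed 64.7% of the cells that met its keratin rule against 2.10 to 44.0% elsewhere. Any pair of libraries shared at most 0.393% of the barcodes of the smaller.

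Gene positions were read from the GENCODE annotation of GRCm38 (mm10). Hmgcs1 (ENSMUSG00000093930) lies at chr13:119690379-119708260 on the plus strand and Idi1 (ENSMUSG00000058258) at chr13:8885501-8892451 on the plus strand. Sqle (ENSMUSG00000022351) is at chr15:59315077-59331192, plus strand, and on the same chromosome lies Srebf2 (ENSMUSG00000022463), chr15:82147181-82205379, plus strand. Cyp51 (ENSMUSG00000001467) occupies chr5:4081145-4104746 on the minus strand and Insig1 (ENSMUSG00000045294) chr5:28071363-28078662 on the plus strand. Sc5d (ENSMUSG00000032018) is at chr9:42251595-42264256 and Srebf1 (ENSMUSG00000020538) at chr11:60199089-60222581, both on the minus strand. All 8 are protein coding. Genes on the opposite strand overlap Idi1 (Gm48574), Hmgcs1 (Gm48342), Cyp51 (Akap9) and Srebf1 (Rai1). On the same strand, Gm49502 and Mir33 overlap Srebf2, and Mir6921 and Mir6922 overlap Srebf1. The part of these overlaps in the counts was not tested.

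Promoters are shown because most of the members moved together across the libraries. RefSeq promoters of GRCm38.p6, from 250 bases before to 50 bases after a start site, matched 7 of the 8 members with 9 promoters; Sqle was not matched. The NF-Y box CCAAT, searched on both strands, stood in at least 1 promoter of each of the 7 and in 8 of the 9 promoters, against 37.4% of all 32851 promoters. The Sp1 box GGGCGG was likewise in 8 of 9 against 35.7%. The sterol regulatory element core TCACNCCAC was in the promoter of Hmgcs1 alone of the 9, against 1.24% of all, and the shorter core CACCCCAC, which overlaps it there, was in 2.87% of all. The TEAD box GGAATG, the site of the factors that YAP works with, was in 0 of 9 against 14.7%, and the E-box CACGTG was in those of Sc5d and Insig1 against 7.15%. A missing match says only that these letters were not in the window. The promoters of 4 members follow, 5' to 3' on the strand of the gene, with capitals at the NF-Y box (CCAAT or its complement ATTGG) and, in Hmgcs1, also at the sterol core. Hmgcs1 (chr13:119690101-119690400, plus strand) holds the sterol core 137 bases before the start and 4 NF-Y boxes, Idi1 (chr13:8885356-8885655, plus strand) 2 boxes, Cyp51 (chr5:4104648-4104947, minus strand) 1 and Srebf2 (chr15:82147019-82147318, plus strand) 1.
Hmgcs1: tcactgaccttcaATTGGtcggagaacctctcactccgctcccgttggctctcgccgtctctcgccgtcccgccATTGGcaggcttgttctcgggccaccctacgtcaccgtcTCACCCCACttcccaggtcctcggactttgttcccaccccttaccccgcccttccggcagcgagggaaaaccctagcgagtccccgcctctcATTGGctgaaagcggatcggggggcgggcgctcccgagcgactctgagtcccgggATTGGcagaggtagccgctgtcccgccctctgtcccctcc
Idi1: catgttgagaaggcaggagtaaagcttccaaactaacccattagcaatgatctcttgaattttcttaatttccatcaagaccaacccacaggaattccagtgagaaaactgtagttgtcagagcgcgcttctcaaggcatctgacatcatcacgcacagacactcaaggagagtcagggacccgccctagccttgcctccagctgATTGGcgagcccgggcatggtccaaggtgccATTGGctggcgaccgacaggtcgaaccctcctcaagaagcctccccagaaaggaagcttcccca
Cyp51: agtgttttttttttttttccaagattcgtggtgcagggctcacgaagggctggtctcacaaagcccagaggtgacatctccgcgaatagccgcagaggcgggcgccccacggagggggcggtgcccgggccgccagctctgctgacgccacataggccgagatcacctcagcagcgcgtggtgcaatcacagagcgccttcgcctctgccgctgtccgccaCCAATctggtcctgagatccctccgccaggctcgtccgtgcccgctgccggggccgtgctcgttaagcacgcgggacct
Srebf2: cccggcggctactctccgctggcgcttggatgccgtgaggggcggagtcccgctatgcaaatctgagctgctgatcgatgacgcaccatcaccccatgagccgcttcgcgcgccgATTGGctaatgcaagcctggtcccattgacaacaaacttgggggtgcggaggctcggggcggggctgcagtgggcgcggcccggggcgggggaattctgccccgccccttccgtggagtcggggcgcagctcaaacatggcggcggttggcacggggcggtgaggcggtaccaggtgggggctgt

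The levels of the enzymes are given in the order of the pathway, as CPM of the UMIs summed over the epithelial cells of a library. Hmgcs1, which makes the HMG-CoA from which mevalonate is formed, stood at 143 CPM in N1 and 116 CPM in N2, 153 and 141 CPM in E, 201 and 248 CPM in Y, and 178 and 226 CPM in EY. The lowest YAP library, EY1, was thus higher than the highest library without YAP, E1. Idi1, which isomerises the isoprenoid unit, was at 66.8 and 43.6 CPM in N, 79.4 and 61.9 CPM in E, 72.5 and 121 CPM in Y, and 134 and 212 CPM in EY. Here 3 of the 4 libraries with YAP were above the highest without it, and Y1 was not.

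Sqle, the squalene epoxidase, was at 17.8 and 10.6 CPM in N, 30.5 and 14.4 CPM in E, 23.2 and 41.2 CPM in Y, and 42.7 and 78.6 CPM in EY. The lowest EY library stood above every other library, and Y1 lay below E1. Cyp51, the lanosterol demethylase, was at 40.6 and 33.2 CPM in N, 55.2 and 31.5 CPM in E, 44.3 and 75.9 CPM in Y, and 77.6 and 140 CPM in EY. Sc5d, a desaturase near the end of the chain, was at 15.4 and 12.6 CPM in N, 20.5 and 14.8 CPM in E, 16.8 and 28.3 CPM in Y, and 30.1 and 39.1 CPM in EY. In both of these genes, too, Y1 fell within the range of the libraries without YAP and the EY libraries lay above all others.

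Of the regulators, Srebf2, the main activator of the sterol enzymes, was at 38.5 and 37.9 CPM in N, 40.5 and 39.1 CPM in E, 46.5 and 57.6 CPM in Y, and 58.1 and 65.2 CPM in EY. Its libraries with YAP were all above those without. Insig1, the endoplasmic reticulum protein that retains the precursors and is itself a target of SREBP, was at 9.82 and 6.67 CPM in N, 12.8 and 5.10 CPM in E, 8.56 and 13.9 CPM in Y, and 15.8 and 22.6 CPM in EY. Srebf1, whose product acts more on fatty acid genes, was at 15.2 and 15.4 CPM in N, 20.6 and 22.2 CPM in E, 17.7 and 16.4 CPM in Y, and 15.4 and 15.7 CPM in EY. Srebf1 was thus highest in the E libraries, and it was the only member of which no YAP library lay above all 4 without YAP.

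**Figure D1:**
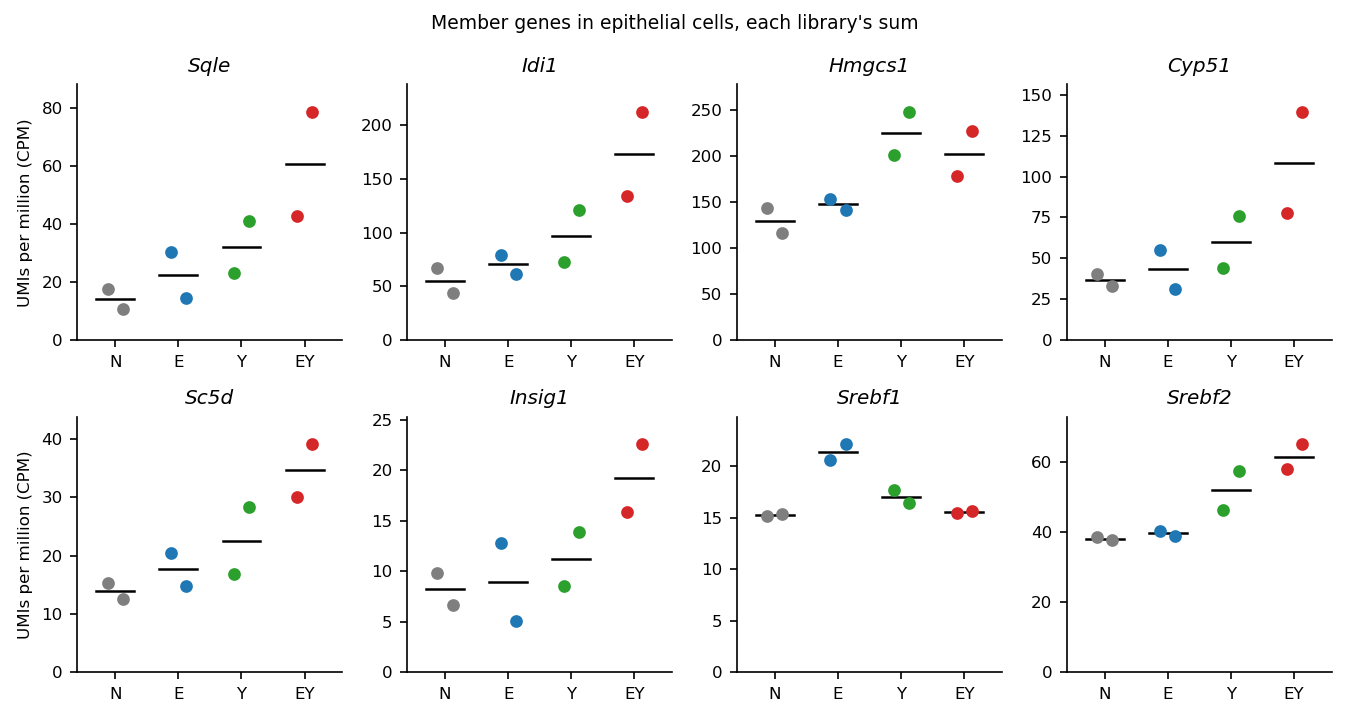
Level of each of the 8 genes in epithelial cells, in CPM (vertical axes, each from 0), by genotype (N, E, Y, EY). Points are libraries, 2 per genotype, and bars are their means; in Sqle the EY libraries sit at 42.7 and 78.6 CPM above all others, and in Srebf1 the E libraries at 20.6 and 22.2 CPM are highest.

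The group means followed the order EY, Y, E, N in 6 of the 8 genes. In Hmgcs1 the order was Y, EY, E, N and in Srebf1 it was E, Y, EY, N. In Sqle, Idi1, Cyp51, Sc5d and Insig1 the libraries of N and E overlapped, as did those of E and Y. With 2 libraries per group, overlap does not show that those neighbours were alike. Both Y libraries lay above both N libraries in Sqle, Idi1, Cyp51 and Sc5d, and not in Insig1. In each of these genes, Insig1 included, the 2 EY libraries lay above both Y libraries. In Srebf2 the libraries of no neighbouring groups overlapped. In Hmgcs1 those of N and E overlapped, as did those of Y and EY. In Srebf1 the E libraries lay above all others, and the N and EY libraries all lay between 15.2 and 15.7 CPM. Over all 13555 genes tested, 9.41% had all 4 YAP libraries above all 4 without, and among the members this held for Hmgcs1 and Srebf2. For the other orders and separations of groups given above, the share of all genes was not counted. They describe the members and do not show that these are unusual.

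The precision differs between genes and libraries, since a CPM value rests on the UMIs behind it. Hmgcs1 was counted with 439 UMIs in EY1 and 8802 in E1, Sqle with 89 in N2 and 2772 in EY2, and Insig1 with 39 in EY1. Srebf1 had the fewest, 38 in EY1.

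To ask what both transgenes together did, EY was compared with N. Of the 8 members, 5 rose and 0 fell (edgeR quasi-likelihood test, Benjamini-Hochberg adjusted p under 0.05), where 18.8% of all genes tested were called in either direction. Sqle rose 4.28-fold, a log2 fold change of 2.10 (SE 0.49, adjusted p = 0.0290), Idi1 by 1.65 (SE 0.34, adjusted p = 0.0220) and Cyp51 by 1.57 (SE 0.40, adjusted p = 0.0357). Sc5d rose by 1.31 (SE 0.30, adjusted p = 0.0278) and Srebf2 by 0.70 (SE 0.15, adjusted p = 0.0263). Hmgcs1 was at 0.65 with an adjusted p of 0.0504, Insig1 at 1.23 with 0.0959 and Srebf1 at 0.03 with 0.910. The median over the members was 1.27, beside a median of -0.05 over all genes tested.

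The call rested on few libraries. It was lost for all 5 genes without N1, without N2 or without EY2, when 0 members passed, and the number of all genes called then fell to 5, 271 and 25 of 13990, 14252 and 13914 genes. The fold of Sqle was still 2.58, 1.82 and 1.55 on the log2 scale in those fits. Without EY1, the library with the doubtful cells, 6 members passed and Sqle was at 2.46, in a fit that called 4061 of 14254 genes, or 28.5%.

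Singly, neither transgene moved a member past the threshold. In E against N 0 of 8 passed by edgeR and by DESeq2 (0.243% of all genes by edgeR), and 1, Srebf1, had an unadjusted p under 0.05. Its difference was 0.49 (SE 0.15, adjusted p = 0.825). In Y against N 0 of 8 passed by edgeR (0.457% of all genes) and 1 by DESeq2, and 4 had an unadjusted p under 0.05. The values were 1.15 for Sqle (adjusted p = 0.396), 0.80 for Idi1, 0.79 for Hmgcs1 (adjusted p = 0.133) and 0.45 for Srebf2. In this comparison the cell limits mattered: with no upper limit on genes and UMIs per cell 6 members were called in Y against N, and 10.2% of all genes. By DESeq2 the share of all genes was 3.37%. These comparisons and EY against N share the N libraries.

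**Figure D2:**
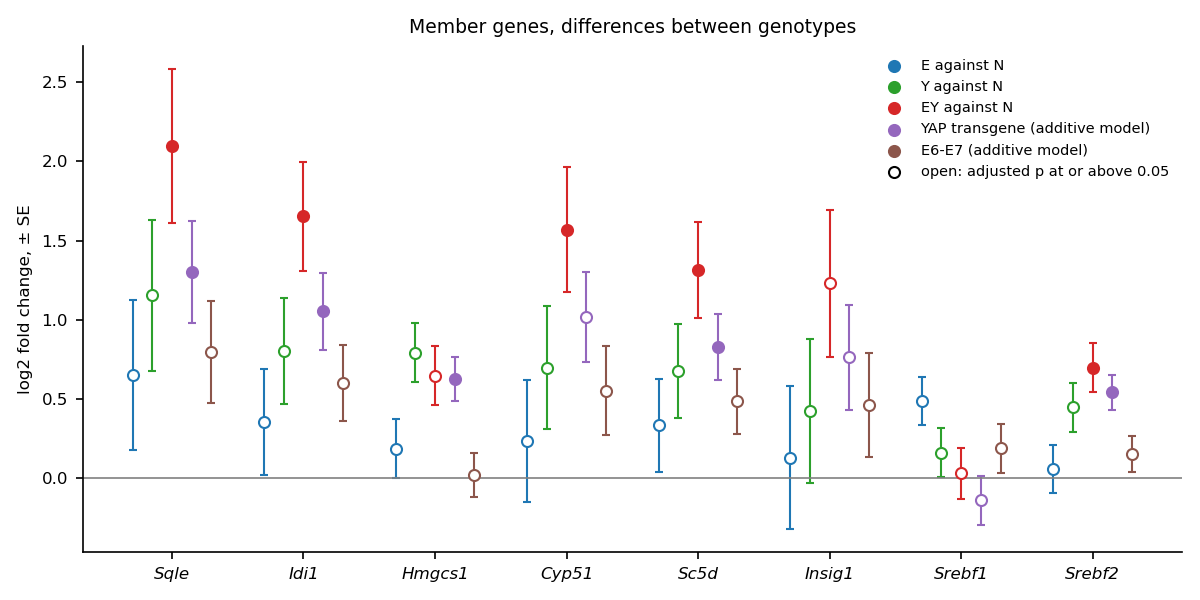
Log2 fold change (vertical axis, ± SE) of each gene in 5 comparisons of genotypes, in colours; filled points have an edgeR adjusted p under 0.05 over all genes and open points do not. EY against N reaches 2.10 in Sqle and 0.03 in Srebf1.

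An additive model then set the 4 libraries with the YAP transgene against the 4 without, adjusted for E6-E7. Again 5 of 8 members rose, where 8.98% of all genes were called. Sqle rose by 1.30 (SE 0.32, adjusted p = 0.0440), Idi1 by 1.05 (SE 0.24, adjusted p = 0.0363) and Hmgcs1 by 0.63 (SE 0.14, adjusted p = 0.0326). Sc5d rose by 0.83 (SE 0.21, adjusted p = 0.0452) and Srebf2 by 0.54 (SE 0.11, adjusted p = 0.0273). Cyp51 was at 1.02 (adjusted p = 0.0578), Insig1 at 0.76 (adjusted p = 0.155) and Srebf1 at -0.14. The count was 6 without Y1, and with any other library left out it was 0 or 1: 1 without N1, EY1 or EY2 and 0 without N2, E1, E2 or Y2. All 7 positive members stayed positive in each of those 8 fits.

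For E6-E7, adjusted for YAP, 0 of 8 members passed by edgeR and by DESeq2 (0.406% of all genes by edgeR) and 3 had an unadjusted p under 0.05, Sqle at 0.80, Idi1 at 0.60 and Sc5d at 0.48 (adjusted p = 0.425, 0.425 and 0.428). The interaction term, a test of whether EY differed from the sum of both single effects, was called for 0 of 8 members and for 0 of 13555 genes (0%) by edgeR, with 1562 genes at an unadjusted p under 0.05; by DESeq2 it was called for 0 members. The largest interaction values were 0.68 for Insig1 (SE 0.64), 0.64 for Cyp51 and -0.62 for Srebf1 (SE 0.22, adjusted p = 0.381).

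Other measures moved with these genotypes. The share of cells in the cycling range, by 7 mitotic genes, was 11.2 to 22.7% of epithelial cells in N and E, 16.4 and 27.0% in Y, and 28.2 and 50.7% in EY. The summed immune markers in the epithelial cells were at 31.1 to 46.7 CPM in N and E, 83.1 and 142 CPM in Y, and 415 and 1314 CPM in EY; in EY most of this was S100a8, at 1148 CPM in EY1 and 370 CPM in EY2. Cd74 was at 33.4 to 60.6 CPM in the YAP libraries and 13.1 to 24.4 CPM in the others, and in Y2, at 57.7 CPM, it was above S100a8, at 19.0 CPM. Lyz2 was at 131 CPM in EY1 and 3.89 to 20.6 CPM elsewhere, and Cd3e and Nkg7 stayed at or below 3.86 CPM. With only the cells outside the cycling range, 5 members were called in EY against N, where 21.6% of all genes were, and 3 for the YAP transgene, where 9.59% were. The part of the transcripts of the immune list was not tested, nor was it tested which cells S100a8 came from.

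The whole chain was then examined from a list of 21 sterol enzymes, of which the 5 member enzymes are part. In EY against N all 21 had a positive difference, 14 rose and 0 fell, where 18.8% of all genes were called, and the median was 1.54. Outside the members, Mvd, which forms the isoprenoid unit, rose by 2.18 (SE 0.50, adjusted p = 0.0275). Msmo1 (1.77), Acat2 (1.75), Fdps (1.70), Fdft1 (1.61), Pmvk (1.61) and Lss (1.54) also rose. Acat2 joins acetyl units at the start of the chain, Lss closes the sterol rings and Msmo1 acts on the sterols after that. Fdps, the farnesyl diphosphate synthase, was at 130 and 83.3 CPM in N, 154 and 115 CPM in E, 157 and 247 CPM in Y, and 260 and 435 CPM in EY. The smallest differences were in Ebp (0.17) and Mvk (0.40), which did not pass.

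For the YAP transgene, where 8.98% of all genes were called, all 21 enzymes were again positive, 9 rose and 0 fell (median 0.95), with Fdps at 1.15 (SE 0.25, adjusted p = 0.0300) and Lss at 1.07 (adjusted p = 0.0379). In Y against N all 21 were positive and 0 passed by edgeR, with 7 at an unadjusted p under 0.05 (median 0.68). In E against N 18 were positive, 0 passed and 0 had such a p (median 0.23), and for E6-E7 21 were positive, 0 passed and 5 had such a p (median 0.55). Enzymes of 1 pathway are not independent of each other, and these comparisons share libraries. The calls for the enzymes in EY against N also fell to 0 without N1, N2 or EY2, while the medians were 1.85, 1.26 and 1.05. For the YAP transgene the 9 calls became 14 without Y1, 3 without N1, 2 without EY1, 1 without EY2 and 0 without N2, E1, E2 or Y2.

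**Figure D3:**
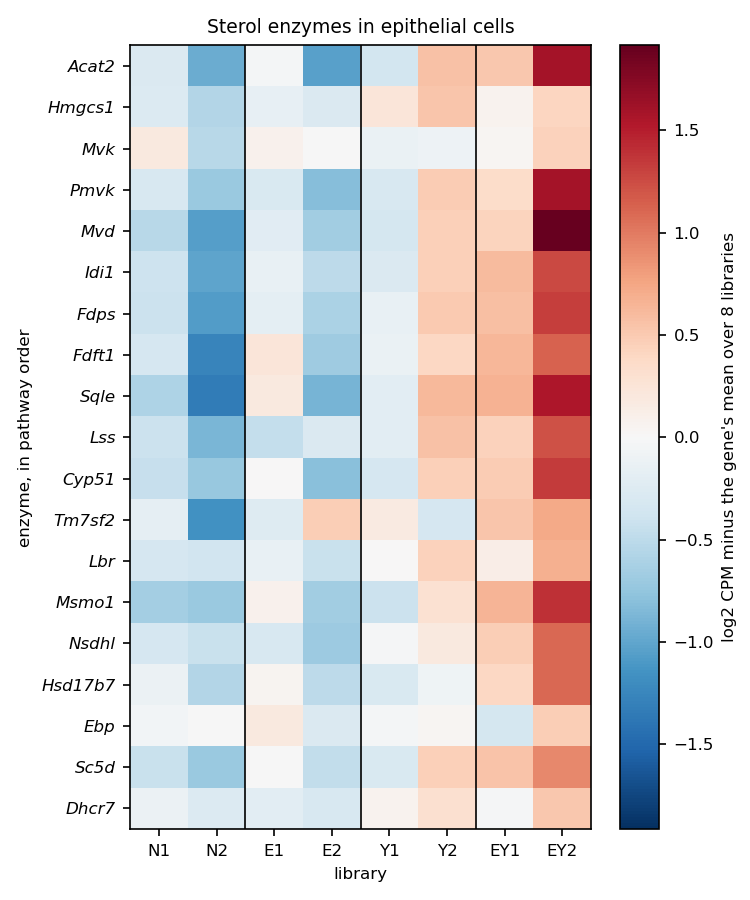
Level of 19 sterol enzymes (rows, in pathway order) in the epithelial cells of each library (columns, grouped by genotype), as log2 CPM minus the mean of the gene over the 8 libraries. Red is above and blue below that mean; the EY2 column is above 0 and the N2 column below 0 in every row, Ebp in N2 by only 0.0001.

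Among 13 sterol control genes, members included, 1 rose and 1 fell in EY against N, where 18.8% of all genes were called. The count was close to that share. Srebf2 rose, and Mbtps1, the site-1 protease that cuts the SREBP precursors, fell by 0.85 (SE 0.22, adjusted p = 0.0364). Mbtps1 was at 32.0 and 34.5 CPM in N and at 21.9 and 15.9 CPM in EY. Scap, the escort of the precursors, was at -0.19 and Insig2 at 0.07, both short of the threshold. The list's median was 0.03.

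Genes of cholesterol uptake and efflux went in both directions in EY against N. Of 16 listed, 14 were tested, and 2 rose and 4 fell (median -0.34), where 18.8% of all genes were called. Stard4, a sterol carrier, rose by 2.12 (SE 0.45, adjusted p = 0.0238) and the lipoprotein receptor Scarb1 by 1.54 (SE 0.42, adjusted p = 0.0434). Abca1, the pump that exports cholesterol, fell by 3.67 (SE 0.91, adjusted p = 0.0345), from 8.36 and 11.7 CPM in N to 2.84 and 0.397 CPM in EY. The EY values rest on few counts, 7 UMIs in EY1 and 14 in EY2, against 423 in N1 and 98 in N2. Mylip, a ubiquitin ligase, fell by 1.80 (SE 0.43, adjusted p = 0.0308), the lipid carrier Apoe by 1.53 (SE 0.32, adjusted p = 0.0220) and Npc1, which moves cholesterol out of lysosomes, by 1.19 (SE 0.30, adjusted p = 0.0343). Abca1 and Mylip are textbook targets of the sterol-sensing liver X receptors. The targets of these receptors were not examined as a set, and the activity of the receptors was not tested. Within the same libraries Abca1 and Apoe were lower in epithelial than in Ptprc-positive cells, by 3.48 and 2.46 on the log2 scale; the part of leukocyte RNA in these levels was not tested.

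Of 12 fatty acid genes that SREBP factors control, 3 rose in EY against N and 0 fell (median 0.53), where 18.8% of all genes were called. The count was close to that share. The 3 were the desaturases Scd1 (1.66, SE 0.34, adjusted p = 0.0211) and Fads2 (1.32, SE 0.25, adjusted p = 0.0183), and Acly (0.96, SE 0.24, adjusted p = 0.0360), which supplies acetyl-CoA. For the YAP transgene these 3 and Acsl3 (0.68, SE 0.14, adjusted p = 0.0253) rose, where 8.98% of all genes were called. Scd1 was at 8.77 and 7.86 CPM in N, 13.0 and 7.01 CPM in E, 16.9 and 24.0 CPM in Y, and 21.9 and 29.95 CPM in EY. Its YAP libraries all lay above the others, as in 9.41% of all genes tested.

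**Figure D4:**
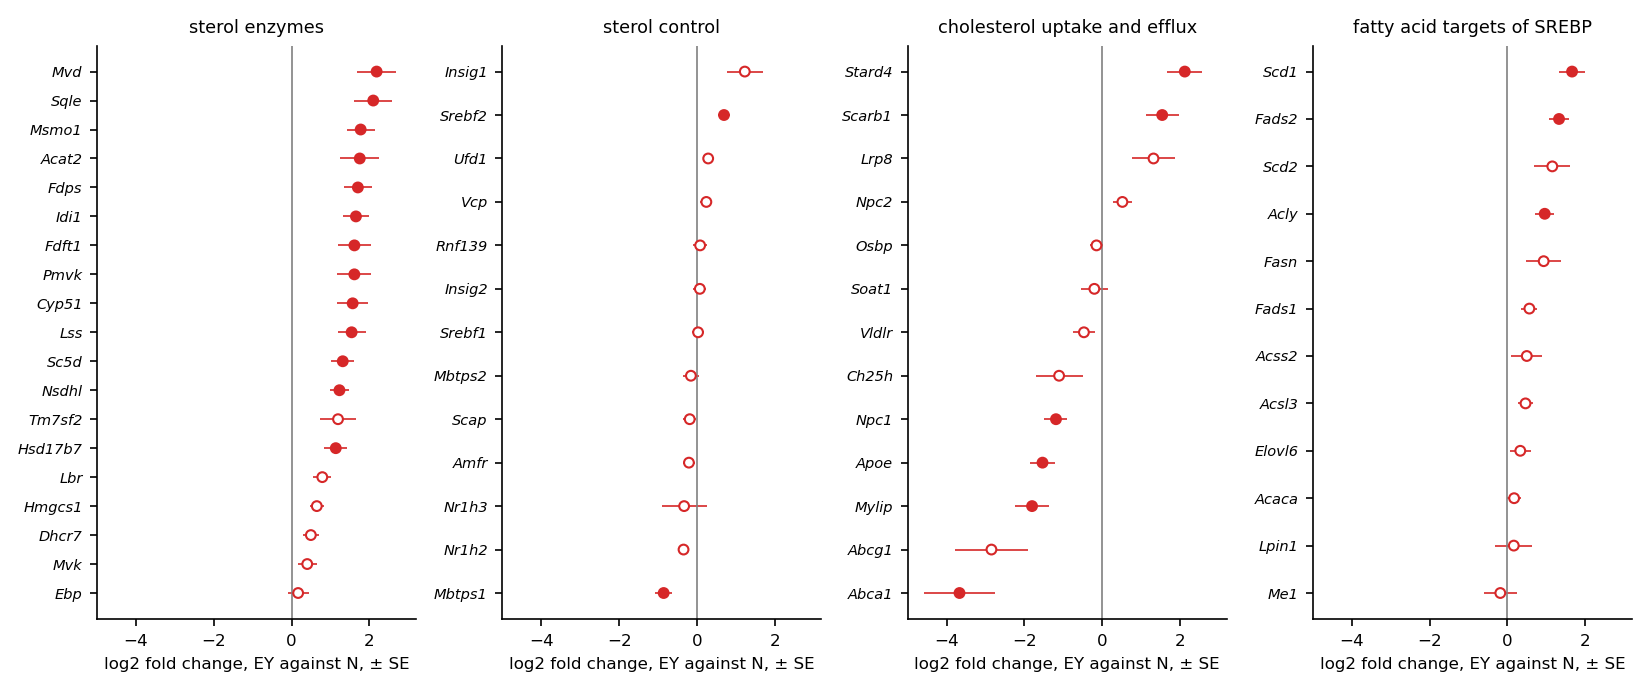
Log2 fold change in EY against N (horizontal axes, ± SE) of the genes of 4 lists, ordered by size; filled points have an edgeR adjusted p under 0.05. The 19 sterol enzymes drawn all lie right of 0, from 0.17 in Ebp to 2.18 in Mvd, while cholesterol uptake and efflux genes spread from -3.67 in Abca1 to 2.12 in Stard4.

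Epithelial cells were next set against the Ptprc-positive cells (leukocytes) of the same library, 10739 cells in all, with the library as a block. Hmgcs1 was higher in epithelial cells with a log2 difference of 2.04 (SE 0.10, adjusted p = 1.61e-08) and in 8 of 8 libraries, Idi1 by 1.23 (SE 0.14, adjusted p = 1.49e-05, 8 of 8) and Sqle by 0.74 (SE 0.24, adjusted p = 0.0165, 6 of 8). Insig1 was lower, by -1.19 (SE 0.18, adjusted p = 0.000109), in 8 of 8 libraries. Thus 4 of 8 members were called, where 75.5% of all genes were, and Cyp51, Sc5d, Srebf1 and Srebf2 did not pass.

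The leukocytes, which the Cre does not reach, allowed a check on where the genotypes differed. For the YAP transgene 0 of 8 members were called in Ptprc-positive cells by edgeR (3.65% of all genes), 1 having an unadjusted p under 0.05; DESeq2 was not run on these cells. Sqle was there at 17.4 and 10.9 CPM in N, 16.9 and 13.8 CPM in E, 11.8 and 25.5 CPM in Y, and 14.6 and 17.4 CPM in EY, so the EY libraries lay within the range of the others. Its difference was 0.27 (SE 0.28, adjusted p = 0.577), against 1.30 in epithelial cells. Whether the epithelial excess over leukocytes itself changed with YAP was tested in a model with both classes: the change was 1.08 for Sqle (SE 0.34, adjusted p = 0.105), 0.85 for Sc5d (adjusted p = 0.180) and 0.60 for Idi1 (adjusted p = 0.125). By edgeR 0 of 8 members passed (2.55% of all genes) and 3 had an unadjusted p under 0.05; with no cell limits 4 passed, and 12.1% of all genes. A difference in response between the classes was therefore not shown at these limits. The Ptprc-positive class mixes leukocyte types, whose shares in each library were not compared here.

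Within the epithelium, most members were higher in cells with more of the upper-layer keratins. Epithelial cells were split by the share of Krt13 and Krt4, keratins of the upper layers, in the sum of these with the basal keratins Krt5, Krt14 and Krt15, at 50%. This is a range and not a cell type: 7 to 149 cells per library lay between 40 and 60%. The 7 libraries with at least 20 cells in both ranges were used, which leaves out EY1. In differentiating-range against basal-range cells 7 of 8 members rose and 0 fell, where 32.4% of all genes were called. Idi1 rose by 1.33 (SE 0.15, adjusted p = 4.51e-05), Sqle by 1.18 (SE 0.15, adjusted p = 0.000130) and Cyp51 by 1.06 (SE 0.12, adjusted p = 6.20e-05), each higher in 7 of 7 libraries. Insig1 rose by 0.87, Sc5d by 0.76, Srebf2 by 0.56 and Hmgcs1 by 0.39 (adjusted p = 0.00346), and Srebf1 was at 0.01 (adjusted p = 0.975).

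The level of Sqle in basal-range cells was 14.0 and 10.0 CPM in N, 26.9 and 13.9 CPM in E, 18.1 and 33.8 CPM in Y, and 77.1 CPM in EY2. In the differentiating range it was 38.9 and 27.4 CPM in N, 52.8 and 24.1 CPM in E, 64.7 and 83.8 CPM in Y, and 104 CPM in EY2. Basal-range cells of EY2 thus held more Sqle than differentiating-range cells of N or E. The gap between the ranges was smallest in EY2 for Sqle (0.43, against 0.80 to 1.84 in the other libraries) and Idi1 (0.35, against 1.23 to 1.86). With 1 EY library in this comparison that is a value of EY2 and not of the genotype. Tested over YAP and other libraries, the gap changed for 0 of 8 members by edgeR (0.0447% of all genes) and none had an unadjusted p under 0.05.

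The differentiating-range cells of N2 (31 cells) and E2 (51 cells) had medians of 0.355 and 0.633% mitochondrial UMIs, against 4.93 and 4.56% in their basal range. The count of members called was 7 with any of the 7 libraries left out, those included. Of the 21 sterol enzymes 20 rose (median 1.10), where 32.4% of all genes were called. Outside the members the rise was from 0.49 in Ebp to 1.46 in Fdps (SE 0.15, adjusted p = 2.59e-05). The member enzyme Hmgcs1 rose less, by 0.39. Only Lbr (-0.01), which is also a nuclear envelope protein, did not pass. The differentiating range made up 7.47 to 13.7% of epithelial cells in N, E and Y libraries, and 9.41 and 4.44% in EY1 and EY2. With basal-range cells alone, 6 members were called in EY against N (19.0% of all genes) and 4 for the YAP transgene (9%), and Sqle was at 2.31 in EY against N.

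**Figure D5:**
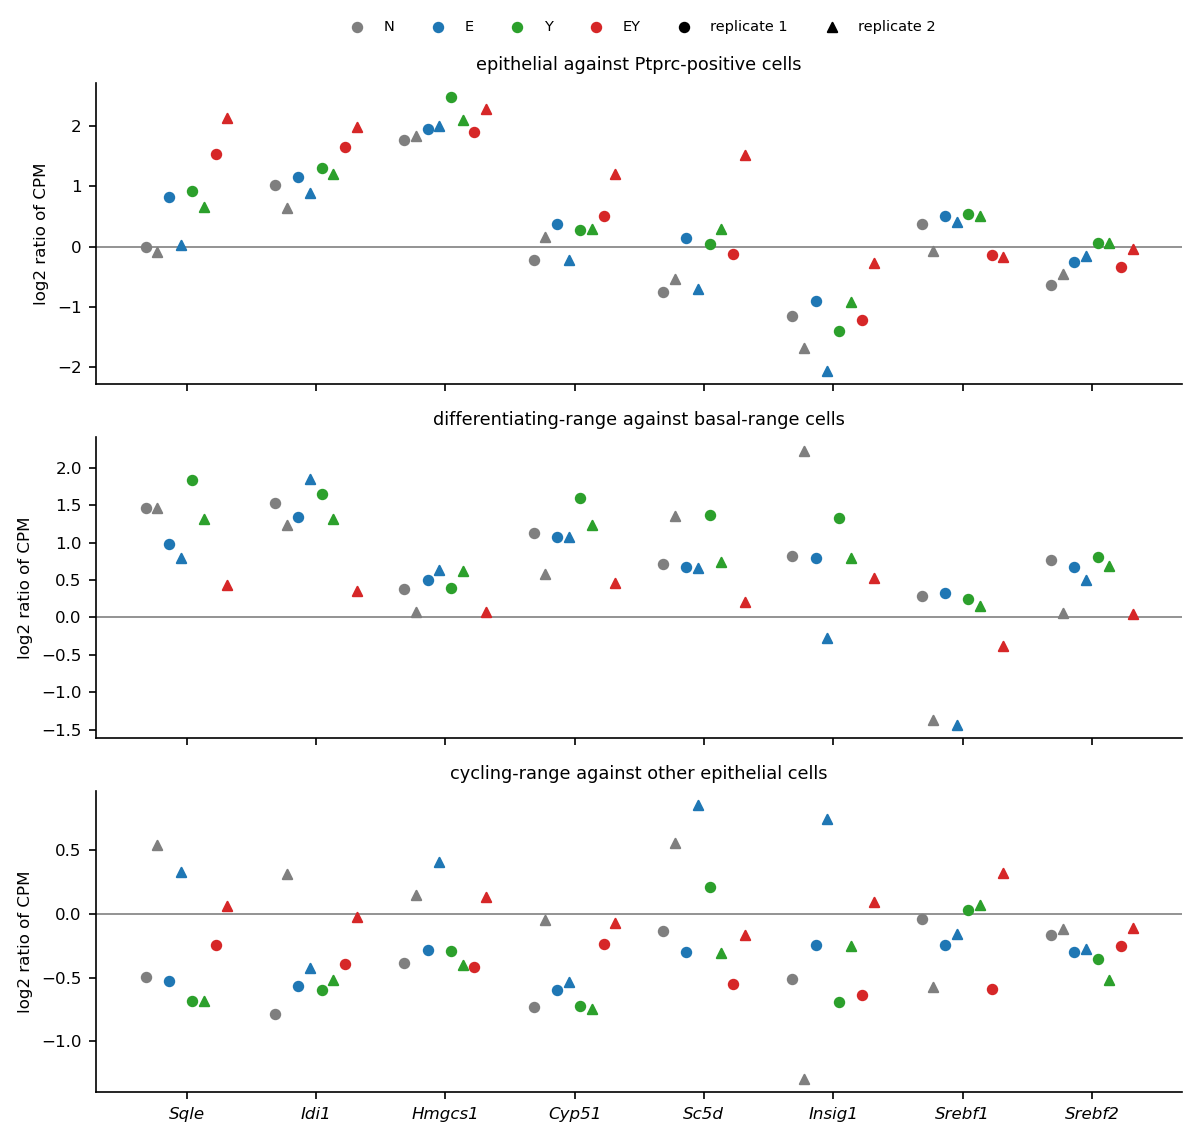
Log2 ratio of CPM between classes of cells of the same library (vertical axes) for each gene; colours give the genotype and symbols the replicate. Top: epithelial against Ptprc-positive cells. Middle: differentiating-range against basal-range cells, without EY1, where Idi1 is at 0.35 in EY2 and 1.23 to 1.86 elsewhere. Bottom: cycling-range against other epithelial cells.

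Cycling-range cells were compared with the rest of the epithelium in the same way. Cells were put in the cycling range when Mki67, Top2a, Cdk1, Ccnb1, Birc5, Cdca8 and Ube2c together made up at least 0.1% of UMIs, with at least 3 UMIs. Against the other epithelial cells of the library, 3 of 8 members fell and 0 rose, where 29.8% of all genes were called. The count was close to that share. Cyp51 fell by 0.49 (SE 0.09, adjusted p = 0.00245, lower in 8 of 8 libraries), Idi1 by 0.40 (SE 0.10, adjusted p = 0.0115, 7 of 8) and Srebf2 by 0.27 (SE 0.06, adjusted p = 0.00825, 8 of 8). Sqle was at -0.31 (adjusted p = 0.0835) and the other 4 between -0.27 and -0.03. Among the 21 enzymes 8 fell and 1, Lbr, rose by 1.26 (SE 0.16, adjusted p = 0.000185). The count of members was 1 with no cell limits (44.6% of all genes) and 5 with a cut at 0.2% (28.5%). The cycling cells of EY1 had a median of 0.0658% mitochondrial UMIs; without that library 3 members fell.

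Lastly, all genes were ranked by how closely their pattern over the 8 libraries followed the mean of the 5 member enzymes, by the root mean square difference of centred log2 CPM, among the 5099 genes that averaged 20 CPM or more. The mean pattern itself was -0.42 and -0.87 in N, -0.03 and -0.59 in E, -0.17 and 0.51 in Y, and 0.48 and 1.10 in EY. The closest gene was Fdps, at 0.125, which is the next enzyme after Idi1. It was followed by Ppif (0.137), Cars (0.148), Bex3 (0.157), Asns (0.158), Trim27 (0.161), Gars (0.169) and Vrk1 (0.170). Among the members the same measure was 0.108 for Sc5d, 0.115 for Idi1 and 0.136 for Cyp51, enzymes that are part of the mean, then 0.282 for Sqle and 0.363 for Hmgcs1; outside the mean it was 0.242 for Insig1, 0.346 for Srebf2 and 0.692 for Srebf1. Srebf1 was the member least like the rest.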

How the data were processed

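Tongue epithelial cells were profiled in 8 libraries by 3' droplet sequencing. The authors made the deposited counts with Cell Ranger 5.0.0 (file headers) on mm10, as unscaled UMI counts per gene and barcode, 1 matrix per library. The labels and the study's methods name different versions of the kit. The members, lists and tests were chosen with earlier results of these data known.

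The study's limits were applied to cells: 1000 to 5500 genes, no more than 30000 UMIs and mitochondrial UMIs up to 7%. No doublet caller was used. Counts were summed per library and class (Python 3.11.15, numpy 2.4.6, pandas 2.3.3, scipy 1.17.1) and tested by the quasi-likelihood test of edgeR 4.0.16 (R 4.3.3) after filterByExpr, with TMM factors of 0.953 to 1.04, adjusted over all genes tested by Benjamini-Hochberg. A model of group means gave the pairwise contrasts and the interaction; an additive model gave each transgene; comparisons of cell classes took the library as a block, with at least 20 cells per sum and without the genes that defined the classes. The tests in Ptprc-positive cells and of the change of a class difference with YAP were added after the first results. Standard errors were derived from the F statistic and the fold change. The scripts were tested on simulated data. Alternatives were RLE scaling, DESeq2 1.42.0, no filter on low counts, other cell limits and classes, thinning and leaving out each library. Genes named outside the members were those of the lists called in EY against N or for the YAP transgene, up to 8 higher and 8 lower per list, at 5 CPM or more in 1 group, and the 8 genes most like the member enzymes; Ebp, Mvk, Lbr, Scap and Insig2 were named after their values were seen. Some genes of the lists are counted but not reported here by name. Total UMIs per library ran from 46483469 to 102427359. Figures were drawn with matplotlib 3.10.9.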

Additional observations from a re-analysis of the deposited data

Results flagged for a closer look

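In 56 groups of 4 to 8 libraries the highest or lowest value was checked for a wide gap to its neighbour (Dixon's test), and 2 values were flagged. Chance flags about 1 in 20 groups, so this count is no more than chance would give. Both flagged values belong to EY2. The log2 ratio of Sc5d between epithelial and Ptprc-positive cells was 1.52 in EY2 and between -0.76 and 0.29 in the other 7 libraries. In EY2 Sc5d was at 37.6 CPM in epithelial and 13.1 CPM in Ptprc-positive cells. Idi1 differed between the differentiating and the basal range by 0.35 in EY2 and by 1.23 to 1.86 in the other 6 libraries, on levels of 266 and 209 CPM in EY2. The cycling range held 50.7% of the epithelial cells of EY2; its part in either value was not tested.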

How the results depend on the processing

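With each library left out in turn, the members called ranged from 0 to 6 in EY against N and from 0 to 6 for the YAP transgene, each with 5 in the full fit. The share of all genes called moved too, from 0.0357 to 28.5% in EY against N and from 2.32 to 12.2% for the YAP transgene, highest without EY1 and without Y1, the fits with 6 members. The members called for the YAP transgene were 3 with cells outside the cycling range, 3 thinned to the smallest library, 2 without cells under 0.5% mitochondrial UMIs and 1 without these and EY1 (the last 2 and a keratin share of 1.5% were chosen after seeing the data). In Y against N, with 0 in the full fit, 1 was called by DESeq2, 4 with no filter on low counts, 6 with no upper limits and 5 with no cell limits, where all genes were called at 3.37, 5.56, 10.2 and 9.83% against 0.457%; for E6-E7 2 with no filter (3.52% of all genes against 0.406%). In cycling-range cells 1 was called with no cell limits and 5 with a cut at 0.2%, against 3. The excess of epithelial over Ptprc-positive cells changed with YAP for 4 members with no cell limits, against 0. Over all genes, EY against N called 18.8% in the full fit, 40.8% with no upper limits and 0.0357% without N1. A keratin share of 5% could not be fitted, since EY2 then had 0 cells. No paired analysis was possible because the labels give no replicate numbers that pair libraries.

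Directions reversed only in differences that did not pass. Srebf2 in E against N was -0.039 after thinning. Srebf1 was -0.10 and -0.12 in Y against N and -0.11 and -0.11 in EY against N with no upper limits and no cell limits, -0.087 in EY against N with cells outside the cycling range, and 0.049 for the YAP transgene after thinning. Hmgcs1 for E6-E7 was -0.00309 with no upper limits, -0.016 with no cell limits, -0.045 with cells outside the cycling range and -0.011 after thinning. Between epithelial and Ptprc-positive cells Sc5d was 0.087 with no filter and 0.22 with no cell limits, and Srebf2 0.00012 with no cell limits. Srebf1 in differentiating-range cells was -0.000871 with RLE scaling and -0.0017 with no filter. With single libraries left out, E against N ranged from -0.0039 to 1.11 for Sqle, -0.24 to 0.58 for Cyp51 and -0.72 to 0.61 for Insig1, the interaction from -0.25 to 0.94 for Sqle and -0.0042 to 0.78 for Sc5d, and E6-E7 from -0.062 to 0.13 for Hmgcs1. Sc5d ranged from -0.24 to 0.12 between epithelial and Ptprc-positive cells and from -0.11 to 0.025 in cycling-range cells, and Srebf1 from -0.089 to 0.12 in differentiating-range and -0.11 to 0.013 in cycling-range cells. In Ptprc-positive cells the YAP difference ranged from -0.043 to 0.44 for Sqle, -0.33 to 0.22 for Sc5d and -0.12 to 0.12 for Srebf1, and the change of the class difference from -0.23 to 0.017 for Srebf1.

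Depth limited EY1 most, where 170 epithelial cells gave 38 to 439 UMIs per member, and with 2 libraries per genotype a difference must be large against the spread to pass.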

Other observations

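Of the 12 fatty acid genes, 6 rose, 2 fell and 4 did not pass when differentiating-range cells were set against basal-range cells. In that comparison 32.4% of all genes were called. Acss2, which makes acetyl-CoA from acetate, rose by 1.83 (SE 0.21, edgeR adjusted p = 5.71e-05) and Me1, a source of NADPH, by 1.70, with Fasn, Acly, Scd2 and Acaca also higher, whereas the desaturases of polyunsaturated fatty acids fell, Fads1 by 1.89 (SE 0.28, adjusted p = 0.000371) and Fads2 by 1.23 (SE 0.20, adjusted p = 0.000758). Across genotypes Fads2 was at 42.5 to 73.4 CPM in the YAP libraries and 24.4 to 26.3 CPM in the others. In that list the YAP libraries also all lay above the others in Fads1, Scd1, Acly and Acsl3. Of all genes tested, 9.41% had this order.

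Abca1 and Apoe were lower in the differentiating range too, by 1.80 and 0.82 on the log2 scale (edgeR adjusted p = 0.00246 and 5.40e-05), as was Mylip, by 0.85, while Stard4 was higher by 0.999. In Ptprc-positive cells Abca1 rose with the YAP transgene by 1.62 (SE 0.28, edgeR adjusted p = 0.0321), while in epithelial cells it was at -1.76 (adjusted p = 0.108). These genes were named after their values were seen.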
